A study of Mus musculus with 62 samples.

Results

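The 37 genes described here are known targets of interferon, read in white adipose tissue of mice carrying melanoma. They were taken as a list of gene names drawn up with earlier results of these data known, and no threshold on a value was applied. The 37 genes fill 38 of the 47643 rows of the expression table, because Gbp6 is held as 2 rows that are written here as Gbp6_1 and Gbp6_2. All 38 rows had a mean of at least 0.5 TPM (transcript abundance scaled to a fixed library total), the filter that 14577 rows passed, and none was at 0 in any library. The genes fall into 3 classes. The gamma-type class has 16 genes on 17 rows, and the type I class has 14 genes. A class of 7 genes, counted here as answering to both kinds of interferon, is called shared.

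The study followed fat over the course of cancer cachexia, the wasting of fat and muscle that accompanies some tumours. Female mice, 2 months old, were injected with melanoma cells that cause cachexia (CAC), with melanoma cells that do not (NCAC), or with a mock injection (Con). White adipose tissue was taken 2, 4, 6 and 8 weeks later, with 5 libraries in each of the 12 groups except CAC at 8 weeks, which has 7. The series design names NCI Ath/nude mice, whereas the sample labels name C57BL6/J; the treatment label is the same for all 62 samples, mock included, so each arm was read from the free description. The fat depot, the number of cell clones and any agent given to the mock group are not stated in the labels. Nude mice lack a thymus and so most T cells, although they keep natural killer cells and macrophages.

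Interferons are secreted proteins that warn tissue of infection or damage. Interferon gamma, made chiefly by natural killer cells and T cells, acts largely but not only through DNA sites called GAS elements. It drives chemokines such as CXCL9, the guanylate-binding proteins and antigen presentation. Type I interferons act largely but not only through a different site, the ISRE. They drive antiviral genes such as the Ifit and Oas families. In fat, macrophages, vessel cells and adipocytes can all respond.

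The promoters of these genes were searched for the letters of both sites. RefSeq promoters (GRCm38.p6) were found for 27 of the 37 genes, as 32 promoters. The 250 bases before each start were searched on both strands for the ISRE letters TTTCNNTTTC and the GAS letters TTCNNNGAA, and overlapping matches were counted separately. The ISRE letters stood in 16 of the 27 genes, against 3.46% of 27025 genes in the same table, and the GAS letters in 11 of 27, against 8.13%. By class, 8 of 9 matched gamma-type genes held the ISRE letters and 5 held the GAS letters. Of 12 matched type I genes, 7 held the ISRE letters and 3 the GAS letters, and of 6 shared genes 1 and 3 did. The 5 promoters below belong to genes whose levels are described in turn. They run from 5′ to 3′ on the strand of the gene, with the matched letters in capitals. The Cxcl9 window (chr5:92328080-92328329, minus strand) holds neither motif. The Gbp2 window (chr3:142620413-142620662, plus strand) holds 1 ISRE match whose first base is at -59 from the start. The Ifit3 window (chr19:34583279-34583528, plus strand) holds 2, at -156 and -122. The Isg15 window (chr4:156200819-156201068, minus strand) holds 3 overlapping matches, at -78, -72 and -66. The Psmb8 window (chr17:34197945-34198194, plus strand) holds 1 GAS match at -97. Positions count from the RefSeq start. In the GENCODE annotation the Psmb8 window lies inside the gene (chr17:34197721-34201454). There the end of the Gbp2 window also overlaps its gene (chr3:142620602-142638008). A match is a run of letters and was not tested for binding. A site with other letters, or outside the window, would be missed, so no match does not mean no site.
Cxcl9: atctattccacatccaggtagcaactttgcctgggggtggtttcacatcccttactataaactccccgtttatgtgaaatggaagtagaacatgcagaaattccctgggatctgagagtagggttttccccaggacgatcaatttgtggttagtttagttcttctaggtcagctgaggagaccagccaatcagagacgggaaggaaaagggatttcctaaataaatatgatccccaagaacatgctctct
Gbp2: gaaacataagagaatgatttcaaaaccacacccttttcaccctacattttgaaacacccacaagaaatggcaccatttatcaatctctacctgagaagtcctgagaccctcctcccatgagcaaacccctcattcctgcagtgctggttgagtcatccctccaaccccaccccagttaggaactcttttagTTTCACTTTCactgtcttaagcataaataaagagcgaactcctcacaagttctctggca
Ifit3: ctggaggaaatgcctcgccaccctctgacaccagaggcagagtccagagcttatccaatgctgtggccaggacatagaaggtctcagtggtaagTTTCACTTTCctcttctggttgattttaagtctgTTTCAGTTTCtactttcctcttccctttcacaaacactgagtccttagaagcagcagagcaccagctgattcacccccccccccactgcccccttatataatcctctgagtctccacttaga
Isg15: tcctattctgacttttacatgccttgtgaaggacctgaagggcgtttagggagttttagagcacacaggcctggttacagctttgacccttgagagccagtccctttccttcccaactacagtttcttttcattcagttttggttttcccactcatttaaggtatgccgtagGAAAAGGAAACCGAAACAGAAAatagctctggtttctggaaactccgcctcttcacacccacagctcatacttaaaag
Psmb8: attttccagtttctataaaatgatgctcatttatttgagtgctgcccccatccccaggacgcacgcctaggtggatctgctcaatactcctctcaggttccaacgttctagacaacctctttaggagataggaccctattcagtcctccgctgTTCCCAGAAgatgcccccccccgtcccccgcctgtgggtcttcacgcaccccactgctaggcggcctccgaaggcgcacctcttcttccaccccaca

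Values are TPM, scaled by the authors so that each library sums to 1000000, and the sequencing depth behind them is not known. Changes are differences of log2(TPM + 1), which understate the change of low genes, and a gene was called when limma's adjusted p over all tested genes was under 0.05. Mitochondrially encoded genes took 19.3% to 41.9% of TPM in CAC libraries and 17.2% to 42.0% in mock libraries. In bulk tissue, fewer cells of a type and less RNA per cell cannot be told apart. Where groups are said not to overlap, the share of all genes that separate in that way was not counted. In 19 libraries the 6 urothelial markers summed to over 100 TPM: 13 of these were CAC, 4 mock and 2 NCAC. In 4 libraries, 1 each from CAC at 4 weeks, mock at 6 weeks, mock at 8 weeks and NCAC at 6 weeks, the T cell gene Cd3e was at 1 TPM or more. Results were computed with and without each of these sets, and also with 2 other scalings of the libraries (TPM recomputed without mitochondrially encoded genes, or divided by median-ratio size factors) and with the replicate number as a block.

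Over the 4 weeks together, CAC fat held less mRNA than mock fat for 9 of the 17 gamma-type rows, led by Cxcl9, and more for 1 shared gene, Psmb8. With the 4 weekly differences averaged, 12 of 38 rows were called by limma, 11 lower and 1 higher, where 11.4% of all tested genes were called. The count was 20 without mitochondrially encoded genes, 18 with median-ratio scaling and 2 without the urothelial libraries. The 11.4% belongs to the main fit and is not the background of these counts. Over all genes, too, more were called without mitochondrially encoded genes and fewer without the urothelial libraries. The share for median-ratio scaling is not given here. The lower gamma-type rows were Cxcl9, Gbp2, Gbp3, Gbp4, Gbp5, Gbp6_1, Gbp7, Gbp10 and Ciita, and the lower type I genes were 2 of 14, Ifit2 and Ifit3. The median change was -0.46 for the gamma-type rows, all 17 of them negative, -0.33 for the type I genes, 12 of 14 negative, and 0.09 for the shared genes, against -0.02 over all tested genes. The difference between classes was not itself tested.

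**Figure D1:**
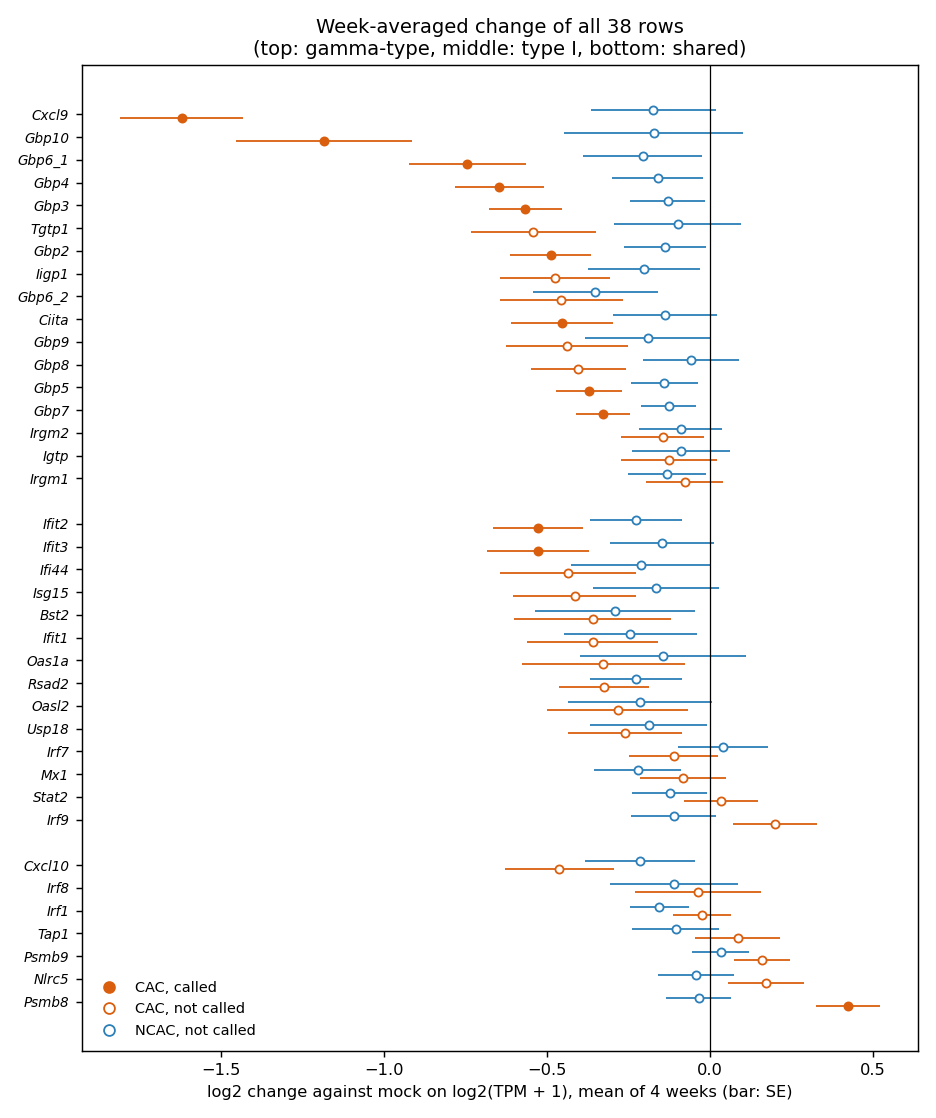
Change of each of the 38 rows against mock, averaged over 4 weeks, on log2(TPM + 1), with bars of 1 SE and filled points where limma's adjusted p was under 0.05. All 17 gamma-type rows of CAC fat sit left of 0, from -1.62 for Cxcl9 to -0.08 for Irgm1, and no NCAC row was called.

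Cxcl9 had the lowest change of all 38 rows in each of the 4 weeks. It encodes a chemokine that draws CXCR3-bearing lymphocytes and is a classical gamma-type gene, lying at chr5:92321347-92328079 on the minus strand (GENCODE annotation of GRCm38). At 2 weeks the 5 CAC libraries held 12.5, 14.4, 18.8, 18.5 and 6.80 TPM, and the mock libraries 12.6, 22.98, 35.1, 36.2 and 34.8 TPM. At 4 weeks CAC libraries held 16.6, 25.4, 4.73, 9.28 and 7.66 TPM and mock libraries 24.7, 36.98, 38.2, 29.4 and 12.1 TPM. The groups overlapped in both weeks: at 2 weeks the lowest mock library lay within the CAC range, and at 4 weeks the 2 lowest mock libraries did.

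By 6 weeks the 2 groups had separated. CAC libraries held 3.18, 6.48, 3.41, 4.40 and 6.18 TPM, and mock libraries 30.4, 25.4, 29.0, 30.7 and 29.1 TPM. Every CAC library lay below every mock library. The 6-week change was -2.42 (SE 0.19, limma adjusted p = 0.000178), and the means were 4.73 ± 1.54 TPM in CAC and 28.9 ± 2.12 TPM in mock (SD, n = 5 each). At 8 weeks the 7 CAC libraries ran from 2.74 to 10.04 TPM with a median of 4.42, and mock libraries held 59.9, 11.6, 19.0, 25.9 and 14.2 TPM. All 7 CAC libraries were below all 5 mock libraries, with a change of -1.93 (SE 0.38, limma adjusted p = 0.0224). That call was lost without the urothelial libraries, where the change was -1.20 (SE 0.61, limma adjusted p = 0.750), and with the replicate block (limma adjusted p = 0.178). Averaged over weeks, Cxcl9 fell by 1.62 (SE 0.19, limma adjusted p = 1.66e-08).

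In NCAC fat Cxcl9 was not called against mock. NCAC libraries held 25.4, 11.3, 23.6, 17.5 and 32.0 TPM at 2 weeks and 42.6, 13.1, 25.8, 23.9 and 41.7 TPM at 4 weeks. They held 17.1, 21.1, 28.6, 18.3 and 33.8 TPM at 6 weeks and 24.4, 29.0, 10.1, 13.1 and 38.4 TPM at 8 weeks. These ranges overlapped the mock ranges in every week, and the average change against mock was -0.17 (SE 0.19). Set against NCAC, CAC libraries were all lower at 6 weeks (-2.11, SE 0.23, limma adjusted p = 0.000881) and at 8 weeks (-1.84, SE 0.36, limma adjusted p = 0.0442). The 8-week call against NCAC was kept in 3 of 12 fits that each left out 1 library; it was lost without CAC 1, 4, 5, 6 or 7 or NCAC 1, 2, 4 or 5 of that week. It was also lost without the filter, with the replicate block and without the urothelial libraries, where the change was -1.06.

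The other chemokine, Cxcl10, lies beside Cxcl9 on chromosome 5 and also binds CXCR3. It was low throughout, between 0.104 and 1.95 TPM over 22 CAC libraries and between 0.316 and 7.10 TPM over 20 mock libraries. The arms overlapped, and its average change of -0.46 (SE 0.17) was not called (limma adjusted p = 0.0590). It was called lower without mitochondrially encoded genes (limma adjusted p = 0.0189) and with median-ratio scaling (0.0237).

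**Figure D2:**
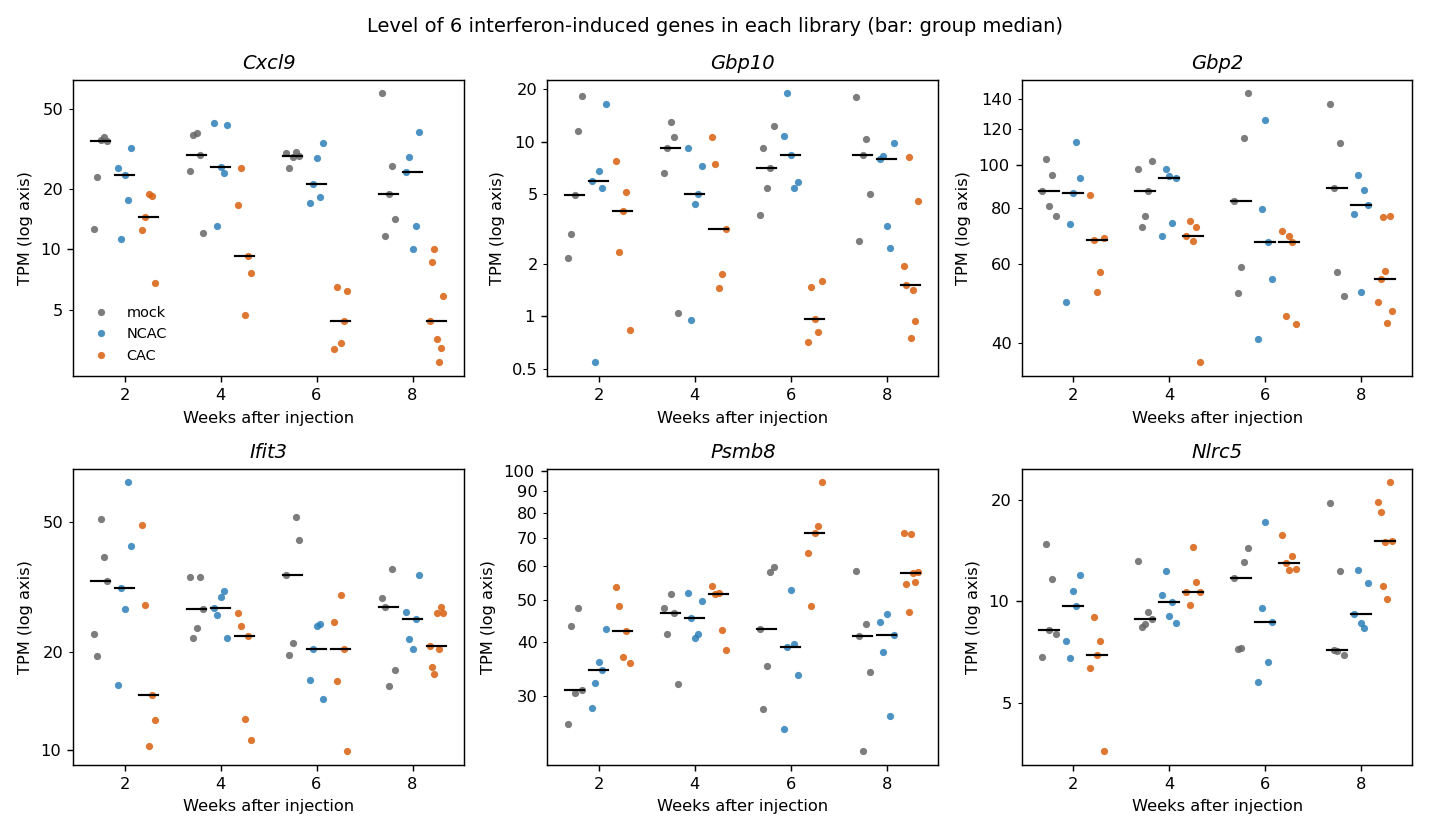
TPM of 6 genes in each of the 62 libraries on log axes, by week and arm, with the group median as a bar. At 6 and 8 weeks every CAC point for Cxcl9 lies below every mock point, while Psmb8 and Nlrc5 lie highest in CAC fat at those weeks by their medians.

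The guanylate-binding proteins, large GTPases that coat and break open the vacuoles of intracellular microbes, made up most of the called genes. They sit in 2 clusters. Gbp5, Gbp7, Gbp3 and Gbp2 lie within chr3:142493978-142638008, and Gbp8, Gbp9, Gbp4, Gbp10 and Gbp6 within chr5:105014150-105293698. In the average over weeks all 4 genes of the chromosome 3 cluster fell, as did Gbp4, Gbp10 and Gbp6_1 of the chromosome 5 cluster. Gbp8 (-0.40, SE 0.15), Gbp9 (-0.44, SE 0.19) and Gbp6_2 (-0.46, SE 0.19) were not called, although Gbp8 and Gbp9 were under both other scalings, Gbp8 with a pseudocount of 0.1 and Gbp6_2 without mitochondrially encoded genes. These genes are close copies of one another, the annotated spans of Gbp8, Gbp9 and Gbp4 overlap, and how reads were shared between copies is not given in the sources used here, so the single values within the chromosome 5 cluster are uncertain.

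Gbp10 had the second-lowest change against mock at 6 and at 8 weeks. At 6 weeks CAC libraries held 0.709, 1.48, 0.969, 0.815 and 1.59 TPM, mock libraries 3.78, 9.25, 5.45, 7.10 and 12.3 TPM, and NCAC libraries 10.8, 18.9, 8.40, 5.46 and 5.88 TPM. All CAC libraries were below all others of that week. The change was -1.95 against mock (SE 0.28, limma adjusted p = 0.0134) and -2.26 against NCAC (SE 0.29, limma adjusted p = 0.00257). Without CAC replicate 4 of that week, the adjusted p against mock was 0.0503. The call against mock was also lost without the urothelial libraries (-2.17, limma adjusted p = 0.626), with all 62 libraries in 1 fit (0.0573) and with the replicate block (0.0713). The call against NCAC was lost without the urothelial libraries (-2.40, limma adjusted p = 0.0600). At 8 weeks the CAC libraries spread from 0.747 to 8.14 TPM, with a median of 1.52, and overlapped the mock libraries at 18.1, 2.71, 8.37, 10.3 and 5.06 TPM. Averaged over weeks, Gbp10 fell by 1.18 (SE 0.27, limma adjusted p = 0.00222), and without the urothelial libraries the change was -0.87 (limma adjusted p = 0.254).

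Gbp6_1 showed the same order at 6 weeks. CAC libraries held 4.06, 5.23, 7.71, 3.89 and 4.84 TPM, mock libraries 9.84, 10.4, 8.56, 10.4 and 18.4 TPM, and NCAC libraries 10.7, 22.7, 21.4, 11.1 and 9.02 TPM. CAC lay below both other arms in every library. The change was called against NCAC (-1.32, SE 0.26, limma adjusted p = 0.0202) and not against mock (-1.01, SE 0.23, limma adjusted p = 0.118), where both other scalings gave a call. The call against NCAC was lost in 3 of 10 fits that left out 1 library, namely without CAC 1, CAC 4 or NCAC 2, and without the urothelial libraries (limma adjusted p = 0.354). Over the average of weeks Gbp6_1 fell by 0.74 against mock (SE 0.18, limma adjusted p = 0.00367).

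In the chromosome 3 cluster the average changes ran from -0.57 to -0.33, and the arms overlapped. Gbp2, the most abundant gamma-type gene here, ran from 36.3 to 85.5 TPM in CAC libraries with a median of 67.6, and from 51.0 to 144 TPM in mock libraries with a median of 87.4. Its NCAC range was 40.8 to 126 TPM. Averaged over weeks it fell by 0.49 (SE 0.12, limma adjusted p = 0.00554). Gbp3 had a CAC median of 13.4 TPM (8.27 to 26.8) against a mock median of 20.6 (12.4 to 29.4) and fell by 0.57. It was also below every mock library in all 5 CAC libraries at 6 weeks. That difference was not called (limma adjusted p = 0.127) except under both other scalings. How many of all genes separated in that way was not counted. Gbp5, which helps assemble the inflammasome, had medians of 3.46 TPM (1.70 to 6.11) and 4.83 TPM (2.70 to 8.54), and fell by 0.37. Gbp7 had medians of 13.9 TPM (8.15 to 24.6) and 17.5 TPM (11.4 to 27.9) and fell by 0.33. Gbp4 of the other cluster had medians of 7.01 TPM (4.12 to 12.3) in CAC and 11.5 TPM (5.64 to 24.8) in mock and fell by 0.65.

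The immunity-related GTPases, a second family that acts on the same vacuoles, gave no call among its 5 rows here. Igtp, the second most abundant gamma-type gene, had medians of 26.2 TPM in CAC (13.8 to 49.0), 28.3 TPM in NCAC (9.97 to 40.2) and 27.7 TPM in mock (12.1 to 56.7). Its average change was -0.13 (SE 0.15), and those of Irgm1 and Irgm2 were -0.08 (SE 0.12) and -0.15 (SE 0.13). The annotated spans of Igtp and Irgm2 overlap on chromosome 11. Iigp1 (-0.48, SE 0.17, limma adjusted p = 0.0556) and Tgtp1 (-0.54, SE 0.19, limma adjusted p = 0.0548) were lower on average by as much as several called genes, without passing the threshold. Both were called lower without mitochondrially encoded genes (limma adjusted p = 0.0130 and 0.0141) and with median-ratio scaling (0.0396 and 0.0257).

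Ciita, the master activator of MHC class II genes, was among the lower genes by a narrow margin. It ran from 0.614 to 2.65 TPM in CAC libraries with a median of 1.16, from 0.867 to 6.17 TPM in NCAC with a median of 1.74, and from 0.714 to 11.7 TPM in mock with a median of 1.89. The arms overlapped, and the average change of -0.45 (SE 0.16, limma adjusted p = 0.0470) held in 30 of 62 fits that each left out 1 library. It was lost without the 4 libraries with Cd3e, without the urothelial libraries, without the filter and with the replicate block. None of the 8 MHC class II genes listed was called against mock in the average of weeks, where 5 had an unadjusted p under 0.05 in limma and the median change was -0.39.

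Among the type I genes 2 of 14 were lower in CAC than in mock fat, a share near the 11.4% called over all genes. Ifit2 and Ifit3 encode antiviral proteins of 1 family, and both lie in the Ifit cluster on chromosome 19. Ifit2 ran from 2.81 to 8.91 TPM in CAC (median 5.08), 2.60 to 11.9 TPM in NCAC (median 6.29) and 4.68 to 13.1 TPM in mock (median 7.53). It fell by 0.53 on average (SE 0.14, limma adjusted p = 0.00767). Ifit3 ran from 9.91 to 49.2 TPM in CAC (median 20.6) and 15.7 to 52.0 TPM in mock (median 28.4), and fell by 0.53 (SE 0.16, limma adjusted p = 0.0197). Arms overlapped for both genes, and the Ifit3 call was lost without the libraries with Cd3e. Both calls were lost without the urothelial libraries (limma adjusted p = 0.0729 and 0.246).

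The other 12 type I genes were not called. Isg15, a ubiquitin-like modifier and the customary marker of the class, had medians of 8.72 TPM in CAC (5.01 to 50.8) and 12.9 TPM in mock (5.90 to 28.2), with a change of -0.41 (SE 0.19, limma adjusted p = 0.152). Bst2, which tethers budding virus to the cell surface, was the most abundant of all 38 rows. Its medians were 119 TPM in CAC (46.3 to 463), 112 TPM in NCAC (56.6 to 270) and 130.2 TPM in mock (57.9 to 794), and its change was -0.36 (SE 0.24). Ifit1 (-0.36), Ifi44 (-0.44), Oas1a (-0.33), Rsad2 (-0.33), Oasl2 (-0.28) and Usp18 (-0.26) were on the same side of 0. The transcription factors Irf7 (-0.11), Stat2 (0.03) and Irf9 (0.20) and the antiviral GTPase Mx1 (-0.08) lay closer to 0. Some of these genes were called under another scaling. Without mitochondrially encoded genes Isg15 (limma adjusted p = 0.0469) and Rsad2 (0.0474) were lower, and with median-ratio scaling Irf9 was higher, against mock (0.0219) and against NCAC (0.00476).

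The shared class held the one gene that rose. Psmb8 encodes a catalytic subunit of the immunoproteasome, which cuts peptides for MHC class I. At 6 weeks CAC libraries held 64.4, 48.5, 71.7, 74.4 and 94.2 TPM, mock libraries 42.9, 27.9, 35.2, 58.3 and 59.9 TPM, and NCAC libraries 25.03, 38.9, 52.8, 39.5 and 33.5 TPM. In 4 of 5 CAC libraries Psmb8 was above every other library of that week. The 6-week change was called against NCAC (0.89, SE 0.21, limma adjusted p = 0.0333), and not against mock (0.67, SE 0.24, limma adjusted p = 0.377). The call against NCAC was lost without CAC 1, 4 or 5 or NCAC 1, 2, 4 or 5, and under both other scalings, without mitochondrially encoded genes and by median ratios, as well as without the filter and without the urothelial libraries. At 8 weeks the CAC libraries ran from 47.0 to 71.8 TPM, median 57.9, above all 5 NCAC libraries, which reached 46.4 TPM. The CAC libraries overlapped the mock libraries of that week, which ran from 22.3 to 58.6 TPM. Averaged over weeks Psmb8 rose by 0.42 against mock (SE 0.10, limma adjusted p = 0.00261) and by 0.46 against NCAC (SE 0.10, limma adjusted p = 0.00112).

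Its partners showed no call between arms. Psmb9, the neighbouring immunoproteasome subunit, changed by 0.16 (SE 0.09) and Tap1, the peptide transporter, by 0.09 (SE 0.13). Nlrc5, the activator of MHC class I genes, changed by 0.17 against mock (SE 0.12), but it rose within the CAC arm. CAC libraries held 6.35, 8.98, 6.93, 7.64 and 3.59 TPM at 2 weeks and 10.2 to 22.6 TPM, median 15.2, at 8 weeks. All 7 later libraries were above all 5 earlier ones (1.15, SE 0.24, limma adjusted p = 0.0491), and the call was kept in 1 of 12 fits that each left out 1 library, the one without CAC replicate 3 of 8 weeks. It was also lost without the filter, without the urothelial libraries and with the replicate block. Irf1, a transcription factor induced by both interferons, had medians of 34.2, 32.4 and 35.0 TPM in CAC, NCAC and mock (23.6 to 51.7, 19.7 to 41.9 and 24.2 to 52.4) and a change of -0.02 (SE 0.09). Irf8, which directs myeloid cells, changed by -0.04 (SE 0.19).

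Week by week, the calls against mock were few. At 2 weeks limma called 0 of 38 rows (5 at an unadjusted p under 0.05), with 0.00686% of all genes called. Gbp6_2 was then lower in all 5 CAC libraries than in any mock library (-0.77, SE 0.22). How many of all genes separated in that way was not counted. Cxcl9 fitted the largest decrease (-0.93) and Psmb8 the largest increase (0.30). At 4 weeks it called 0 of 38 (6 at an unadjusted p under 0.05) against 0.00686% of all genes. The extremes were Cxcl9 (-1.20) and Nlrc5 (0.23). At 6 weeks 2 rows were called lower, Cxcl9 and Gbp10, against 0.357% of all genes, and the highest change was that of Psmb8. At 8 weeks only Cxcl9 was called, against 3.07% of all genes, with Nlrc5 at the other end (0.62, SE 0.27, limma adjusted p = 0.214). The gamma-type median was -0.46, -0.39, -0.51 and -0.57 in the 4 weeks in turn, and the type I median -0.29, -0.31, -0.34 and -0.12.

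**Figure D3:**
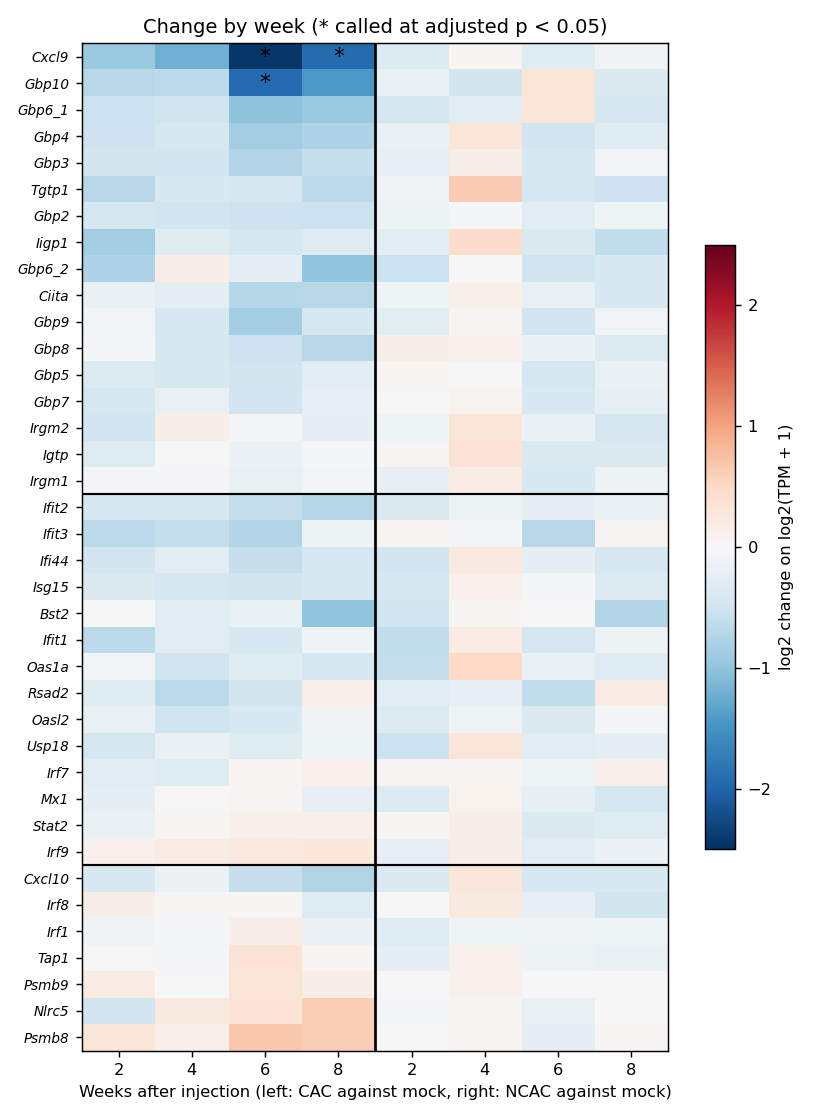
Change of each row against mock in each week on log2(TPM + 1), for CAC on the left and NCAC on the right, with stars where limma's adjusted p was under 0.05 and lines between the gamma-type, type I and shared classes. The 3 stars, on Cxcl9 at 6 and 8 weeks and Gbp10 at 6 weeks, are in the CAC columns.

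Whether the change against mock grew with time was tested as a difference of differences. For Cxcl9 the CAC effect was lower at 6 than at 2 weeks by 1.49 (SE 0.40, unadjusted p = 0.00136 by limma), which was not called (adjusted p = 0.450). No row was called in any of the 4 such tests. The rows with an unadjusted p under 0.05 in limma were 2 for 6 against 2 weeks, 1 for 6 against 4, 0 for 8 against 6 and 1 for 8 against 2, and 0.0686%, 0%, 0% and 0.0549% of all genes were called. Within the CAC arm Cxcl9 fell from 2 to 6 weeks by 1.37 (SE 0.29, limma adjusted p = 0.0450), the one row called where 1.49% of all genes were. That call was kept in 1 of 10 fits that each left out 1 library, the one without CAC replicate 5 of 2 weeks, and was lost under both other scalings, without the filter, without the urothelial libraries and with the replicate block. From 2 to 8 weeks Nlrc5 was the one row called, against 0.796% of all genes. Within mock fat 0 of 38 rows were called by limma from 2 to 6 weeks (2 at an unadjusted p under 0.05) or from 2 to 8 weeks (0), with 0% of all genes called in both.

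Between NCAC and mock fat no row was called. Limma called 0 at 2, 4, 6 and 8 weeks, with 0, 1, 2 and 0 rows at an unadjusted p under 0.05, and 0% of all genes in each week. In the average over weeks it again called 0 rows, with 0 at an unadjusted p under 0.05, and 0% of all genes. Of the averaged NCAC changes 36 of 38 were negative, or 34 with median-ratio scaling, from -0.35 to 0.04, with a median of -0.14 against -0.06 over all genes. CAC and NCAC share the mock libraries, so their changes against mock are not independent.

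Set directly against NCAC, CAC fat gave calls on 6 rows in the average of weeks. Cxcl9 (-1.45), Gbp10 (-1.01), Gbp6_1 (-0.54), Gbp4 (-0.48) and Gbp3 (-0.44) were lower and Psmb8 was higher, where 11.9% of all genes were called by limma. Of the 22 CAC libraries 13 were urothelial, and of the 20 NCAC libraries 2. Without those libraries Cxcl9 alone was called (-1.27, SE 0.26, limma adjusted p = 0.00701), and the adjusted p was 0.163 for Gbp3, 0.424 for Gbp4, 0.740 for Gbp6_1, 0.352 for Gbp10 and 0.204 for Psmb8. The call of Gbp6_1 was also lost without the filter, without the libraries with Cd3e and with the replicate block. Without mitochondrially encoded genes 11 rows were called, and with median-ratio scaling 15. The 11.9% belongs to the main fit, and the shares of all genes called under these scalings are not given here. At 2 and 4 weeks 0 rows were called, with 0 and 11 at an unadjusted p under 0.05 in limma, and 0% of all genes in both weeks. At 4 weeks Gbp4, Iigp1 and Tgtp1, none of them called, were each below every NCAC library in all 5 CAC libraries. How many of all genes separated in that way was not counted. At 6 weeks 4 rows were called, Cxcl9, Gbp6_1 and Gbp10 lower and Psmb8 higher, against 5.78% of all genes. Without the urothelial libraries Cxcl9 alone kept its call in that week. At 8 weeks Cxcl9 alone was called, against 0.528%. 

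As the mean level over a class in each library, the gamma-type genes separated at 6 weeks. The 5 CAC libraries lay between 3.07 and 3.20 on log2(TPM + 1) and the mock libraries between 3.29 and 4.52, with NCAC between 3.17 and 4.22. CAC was below mock in every library. At 8 weeks CAC ran from 2.84 to 3.45, mock from 3.28 to 4.68, and the groups overlapped. The type I means overlapped in all weeks, at 6 weeks from 2.85 to 3.43 in CAC and 2.87 to 4.34 in mock. The shared means did too, at 3.76 to 3.89 in CAC and 3.01 to 4.55 in mock.

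**Figure D4:**
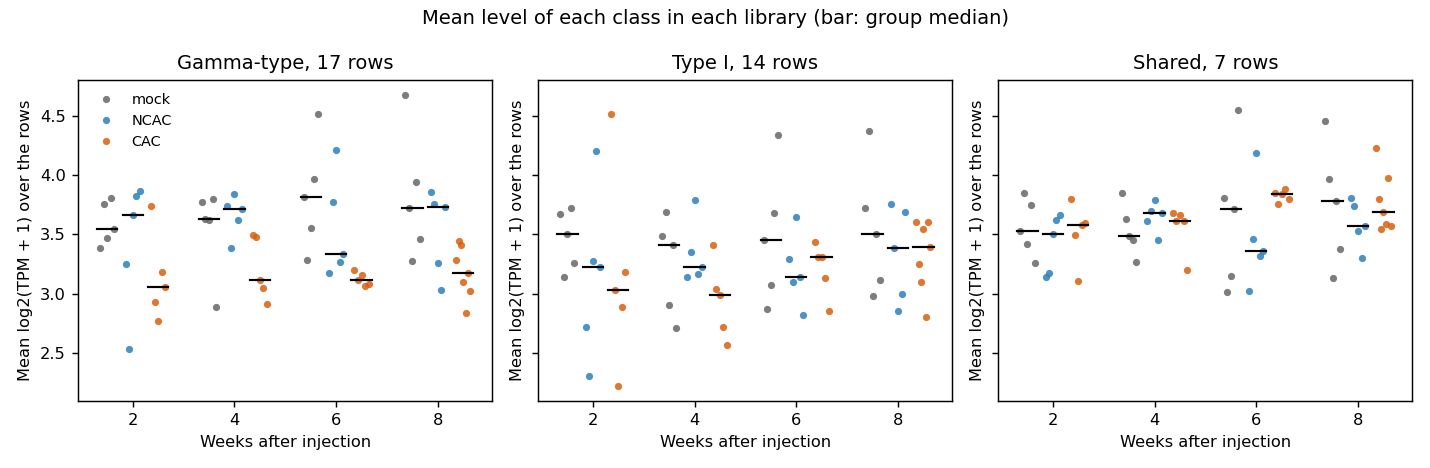
Mean log2(TPM + 1) of the rows of each class in each library, by week and arm, with the group median as a bar. The 5 gamma-type points of CAC fat at 6 weeks, 3.07 to 3.20, lie below all mock points of that week, and the type I and shared points of the arms overlap.

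The rows also rose and fell together between mice of one group, both within and across classes. Over deviations from the group means in 62 libraries, the median Pearson correlation was 0.53 among the 136 gamma-type pairs. It was 0.67 among the 91 type I pairs and 0.57 among the shared pairs. Between classes it was 0.45 for gamma-type with type I rows, 0.54 for gamma-type with shared and 0.42 for shared with type I. Gamma-type rows were no closer to each other than to shared rows. This is a description that includes any difference of composition and scaling the libraries share. No median over pairs of other genes was taken. The genes most like Cxcl9 by this measure were Gbp10 (0.77), Gbp6_1 (0.72), Tmigd1 (0.71), Trpv3 (0.71), Hcar2 (0.70), Ubd (0.67), Derl1 (0.65) and Pgrmc2 (0.65). Those most like Isg15 were Ifit1 (0.89), Oas1a (0.87), Oasl1 (0.85), Ifi44 (0.84), Dhx58 (0.83), Xaf1 (0.81), Oas1g (0.81) and Zbp1 (0.81). Among the 8 nearest to Cxcl9, 2 were rows of the 37 genes and none was a type I gene of the list, whereas 3 of the 8 nearest to Isg15 were.

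Upstream of these genes, the interferon mRNAs themselves were low or at 0 in most libraries. Ifng reached 0.801 TPM at most and was at 0 in 12 of 62 libraries, and Ifnb1, Ifna2 and Ifna4 were at 0 in all 62. Ifne was at 0 in 53 of 62 libraries and reached 2.49 TPM, and Ifnk was at 0 in 61. Of 10 ligand genes, Il15 and Il18 passed the filter and neither was called. Among 12 receptor and signalling genes, 2 rose in the average against mock by limma: Socs3 (1.13, adjusted p = 0.000391), a feedback inhibitor of cytokine signalling, and Cish (0.91, adjusted p = 0.0312), another of that family. Of 12 sensors of nucleic acid 1 fell, Ddx58 (-0.38), and of 12 MHC class I genes 1 rose, Psme1 (0.24), a proteasome activator subunit. Over all genes 11.4% were called in this comparison, so these counts are near the background.

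Interferon genes outside the 37 were read in the same fit. Of 10 tested further gamma-type genes 3 fell and 0 rose in the average against mock by limma. The lower ones were Gbp2b (-1.11), Tgtp2 (-0.80) and Cd274 (-0.42), the last encoding the checkpoint ligand PD-L1. Of the 10 changes 5 were negative and 5 positive, with a median of -0.21. Of 19 tested further type I genes 3 fell and 0 rose: Ifi27l2a (-0.63), Cmpk2 (-0.51) and Ifit3b (-0.48). The share called over all genes was 11.4%, and the type I count is near it. Against NCAC, Nos2 (0.39), the inducible nitric oxide synthase, rose among the further gamma-type genes while Tgtp2 fell.

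Markers of other cell types moved between the arms as well, and their part in these results was not tested except where a fit without the libraries is given. Fibroblast markers fell, with 4 of 6 called against mock in the average of weeks; their sum ran from 145 to 1827 TPM in CAC libraries and 223 to 4250 TPM in mock libraries. None of 9 macrophage markers was called by limma (2 at an unadjusted p under 0.05), with sums of 324 to 1950 TPM and 208 to 2909 TPM. Of 6 natural killer markers 3 were tested and Gzma fell (-0.49), with sums of 1.36 to 14.4 TPM in CAC and 3.35 to 15.6 TPM in mock; Ncr1, the defining receptor, changed by -0.04 (SE 0.11), and Klra8 was at 0 in 58 of 62 libraries. Of 6 endothelial markers 2 were called lower, Kdr (-0.38) and Cdh5 (-0.26), but 4 of the 6 changes were positive, with a median of 0.05. Against NCAC 5 of 6 endothelial changes were positive, and Emcn (0.29) was called higher. Of 6 adipocyte markers 1 fell against mock, Plin1 (-0.50), with 4 of 6 changes negative. Against NCAC all 6 adipocyte changes were negative, and Plin1 (-0.67) and Adipoq (-0.45) were called lower. The 6 adipocyte markers summed to 16397 TPM or more in every library. T cell markers summed to 0.300 to 4.63 TPM in CAC libraries and 0.516 to 17.6 TPM in mock libraries, and Cd3e was at 0 in 14 of 62. Dendritic (4 of 7 tested) and B cell (4 of 7 tested) markers gave 0 calls by limma, each with 2 at an unadjusted p under 0.05; their sums were 6.11 to 15.5 and 1.41 to 15.2 TPM in CAC and 6.99 to 48.4 and 4.72 to 25.3 TPM in mock. Of 4 tested neutrophil markers 1 rose, Retnlg (0.74). Muscle, mammary and melanocyte markers gave 0 calls against mock by limma, with 0, 1 and 1 at an unadjusted p under 0.05. The urothelial markers were higher in CAC fat. Against mock in the average of weeks 1 of 6 was called, Upk1a (1.97), with a median change of 1.72 and all 6 positive, and against NCAC 5 of 6 were called, with a median of 2.53. The 6 summed to 1.92 to 638 TPM in CAC, 2.49 to 431 TPM in mock and 5.81 to 218 TPM in NCAC.

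Without the 19 urothelial libraries, the gamma-type median of the average changes against mock was -0.48, again with all 17 rows negative, against -0.11 over all genes. In that fit 2 of 38 rows were called by limma, Cxcl9 (-1.35, SE 0.26, adjusted p = 0.00612) and Gbp7 (-0.43, SE 0.10, adjusted p = 0.0326). Over all genes 66 were called higher and 57 lower, in place of 764 and 894, with 43 libraries left in place of 62. Cxcl9 kept its call at 6 weeks (-2.61, limma adjusted p = 0.0396) and lost it at 8 weeks (-1.20, SE 0.61), with 2 CAC libraries remaining in each. Psmb8 changed by 0.32 (SE 0.14, limma adjusted p = 0.264), and the median of the shared genes was -0.08. Without the 4 libraries with Cd3e the gamma-type median was -0.35, again with all 17 rows negative, and 10 of the 12 calls were kept, with Ciita and Ifit3 lost and Cxcl9 at -1.47 (SE 0.18, limma adjusted p = 1.68e-07).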

How the data were processed

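Poly(A) RNA of white adipose tissue was sequenced with a stranded kit in 62 libraries, per the labels' protocols, and the replicates are called biological. The authors deposited 1 table of TPM values (transcript abundance scaled to a fixed total), which sums to 1000000 in each library. Per the submitters' processing notes the genome build was mm10. Which aligner, counter and annotation were used is not given in the sources used here. Counts cannot be recovered from TPM, so depth is unknown and no count test was run.

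Levels were taken as log2(TPM + 1). Rows whose mean reached 0.5 TPM entered the tests, and weeks were compared with limma 3.58.1 (R 4.3.3; trend and robust), fitting the libraries of the weeks concerned, with Benjamini-Hochberg adjustment over all tested genes. The average over weeks came from 1 fit of all 62 libraries. P-values measure the spread between these samples. The script was tested on simulated data. Figures used matplotlib 3.10.9.

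The 37 genes, classes and gene lists were chosen with earlier results of these data known. Named with values were genes called in any comparison, the 2 most abundant of each class and, against mock, the row with the largest rise and fall. Values stand by library where a call was made within a week or within an arm, and otherwise as lowest, median and highest per arm. From other lists, up to 3 called genes per direction were named. The alternatives were a pseudocount of 0.1, no filter, removal of mitochondrially encoded genes, median-ratio scaling, all 62 libraries in 1 fit, a replicate block, removal of each library, and removal of libraries with urothelial markers or, chosen after seeing the data, with Cd3e. Promoters are RefSeq GRCm38.p6; gene positions are GENCODE M21 on GRCm38, the assembly of mm10.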

Additional observations from a re-analysis of the deposited data

Results flagged for a closer look

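In 228 groups of 5 or 7 libraries, 1 library stood apart from the rest of its group 20 times, by Dixon's 95% limit for the gap over the range; chance gives about 1 in 20 groups.

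Mock replicate 5 at 4 weeks was low in the gamma-type mean (2.89, the others 3.62 to 3.80) and in Gbp6_1 (5.09 TPM). Mock replicate 5 at 6 weeks was high in Ciita (11.7 TPM), Bst2 (418 TPM) and Gbp6_1 (18.4 TPM), and is a library with Cd3e. So are NCAC replicate 3 at 6 weeks, which was high in Ciita (6.17 TPM), Gbp4 (23.1 TPM) and Ifit2 (10.5 TPM), and mock replicate 1 at 8 weeks, which was high in Gbp6_1 (30.7 TPM). CAC replicate 4 at 4 weeks was low in the shared mean (3.20, the others 3.61 to 3.68) and in Gbp2 (36.3 TPM).

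Bst2 was also high in mock replicate 1 at 2 weeks (489 TPM) and mock replicate 2 at 8 weeks (794 TPM). Further single libraries were CAC replicate 3 at 2 weeks, low in Gbp5 (1.70 TPM), CAC replicate 1 at 2 weeks, high in Igtp (33.8 TPM), and CAC replicate 2 at 6 weeks, high in Ciita (1.91 TPM). CAC replicate 3 at 8 weeks was high in Gbp6_1 (13.1 TPM) and CAC replicate 1 at 8 weeks in Irf1 (42.7 TPM). NCAC replicate 2 at 2 weeks was low in Irf1 (19.7 TPM) and mock replicate 1 at 4 weeks was high in Nlrc5 (13.2 TPM).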

How the results depend on the processing

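No called row changed direction under any alternative run. Differences of class means between CAC and mock moved by less than 1 pooled SD between libraries. This was read under the 2 other scalings and without the urothelial or Cd3e libraries. The limit was wide: for type I at 2 weeks the SD was 0.62 and the difference -0.29. It could therefore not show that the differences kept their size. Cxcl9 was called in all 8 other settings at 6 weeks against mock and against NCAC, and in all 7 in the average of weeks against both. Against mock at 8 weeks it was called in 6 of 8 settings. Counts of called rows moved more. Without mitochondrially encoded genes they were 5 (6 weeks) and 8 (8 weeks) against mock, 20 against mock and 11 against NCAC in the average of weeks, 0 for CAC at 6 against 2 weeks and 2 at 8 against 2. With median-ratio scaling the counts in that order were 5, 3 (1 higher and 2 lower), 18, 15, 0 and 2. At 6 weeks against NCAC these scalings moved the median of all genes from 0.13 to -0.02 and -0.01. In the average against mock, removing mitochondrially encoded genes gave 732 genes higher and 2423 lower, in place of 764 and 894. Without the urothelial libraries the counts of called rows were 1 and 0 against mock at 6 and 8 weeks, 1 and 0 against NCAC, 2 and 1 in the averages and 0 and 0 within the CAC arm. With all 62 libraries in 1 fit they were 1 and 2 against mock, and 3 and 3 within the CAC arm. Without the filter, NCAC at 8 weeks and both CAC time comparisons gave 0. Without the libraries with Cd3e, 8 rows were called against NCAC at 6 weeks. Except where counts over all genes are given, the shares of all genes called under these settings are not given here. The row counts therefore stand without their background and cannot be read as a stronger or weaker result. The cause of these shifts was not tested.

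Leaving out 1 library at a time gave 1 to 4 and 1 to 2 called rows against mock at 6 and 8 weeks, 2 to 8 and 0 to 2 against NCAC, 11 to 17 and 5 to 8 in the averages, and 0 to 3 and 0 to 2 within the CAC arm. At 6 weeks the extremes were without CAC 4 (1) and mock 2 (4) against mock, and without CAC 1, CAC 4 or NCAC 2 (2 each) and NCAC 3 (8) against NCAC. At 8 weeks the count of 2 was reached without CAC 3 in both, and without NCAC 3. The shares of all genes called in these fits, and with the replicate block, are not given here. The replicate numbers did not pair the libraries: correlations of same-numbered deviations ran from -0.65 to 0.57, and in 0 of 12 comparisons were all above 0.1. With the replicate block, the called rows were 1 and 0 against mock at 6 and 8 weeks, 0 against NCAC at 8 weeks, 0 and 0 within the CAC arm and 11 in the average against mock. Depth is unknown, so the counting error of low genes such as Mx1 and Cxcl10 could not be given.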
